A study of Mus musculus with 7 samples.

Results

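Antibody transcripts in tumors grown from mouse embryonic fibroblasts (MEFs) were described through 10 genes of 46603 counted in every library: the heavy chain constant genes Ighm, Ighd, Igha, Ighg1, Ighg2b, Ighg2c and Ighg3, the light chain constant genes Igkc and Iglc2, and Jchain. They were chosen by symbol, as the Ensembl genes that GENCODE M21 gives these names. The 3 KO libraries are pieces of a tumor from cells in which NM1, a nuclear isoform of the motor protein Myo1c, was deleted with CRISPR/Cas9. The 4 KO+NM1 libraries are pieces of a tumor from the same KO cells carrying a lentivirus that expresses NM1 fused to HA and V5 tags, selected with neomycin and grown from single clones, so both conditions share the deletion. The hosts were female Balb/c nude mice aged 16 weeks, injected with MEFs and kept for up to 30 days according to the labels. The study's results place the injection in the mammary pads, and its methods place it under the skin of the right flank. Nude mice lack a working thymus and have few mature T cells but keep B cells, which MEFs are not.

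Per the labels 1 tumor of each condition was cut into 4 pieces and each piece homogenized separately, while the methods use the plural. SDs and p-values thus measure how far pieces differ, and if the labels are right they contain no variation from mouse to mouse. A gene count joins injected and host cells, and the membrane and secreted forms of a heavy chain. In such bulk samples, fewer cells of a type and less RNA per cell cannot be told apart.

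An antibody is built of paired heavy and light chains. The heavy chain constant gene sets the isotype: a naive mature B cell makes IgM and IgD from 1 primary transcript by alternative splicing of Ighm and Ighd, and after class switching it makes IgG, IgA or IgE instead. Igkc encodes the constant region of the kappa light chain and the Iglc genes that of the lambda light chain, and most mouse antibodies carry kappa. Jchain encodes the joining chain that links IgM into pentamers and IgA into dimers, and plasma cells, which secrete antibody, express it most. Ighm can also be transcribed without a rearranged variable segment, from a start within the heavy chain locus, as a germline transcript that makes no antibody.

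The 7 heavy chain members lie in a row on the minus strand of chromosome 12 of GRCm38, the build of the alignment, and transcription passes them in the order Ighm (ENSMUSG00000076617) at chr12:113418558-113422730, Ighd (ENSMUSG00000104213) at chr12:113406604-113416324, Ighg3 (ENSMUSG00000076615) at chr12:113356224-113361232, Ighg1 (ENSMUSG00000076614) at chr12:113325240-113330523, Ighg2b (ENSMUSG00000076613) at chr12:113302965-113307933, Ighg2c (ENSMUSG00000076612) at chr12:113285325-113288932 and Igha (ENSMUSG00000095079) at chr12:113254830-113260236. The light chain members are Igkc (ENSMUSG00000076609) at chr6:70726435-70726966 on the plus strand and Iglc2 (ENSMUSG00000076937) at chr16:19198396-19200351 on the minus strand, and Jchain (ENSMUSG00000067149), also on the minus strand, is at chr5:88519809-88527891. The hinge exon, the flexible link between the antigen-binding arms and the tail, is shown here because it is where the IgG genes differ most from each other. The hinge of each gene is exon 2, read 5' to 3' from the GENCODE M21 transcripts on the minus strand. Capitals mark in-frame codons for cysteine, the residue that forms the bonds between heavy chains.
Ighd hinge, chr12:113415562-113415666: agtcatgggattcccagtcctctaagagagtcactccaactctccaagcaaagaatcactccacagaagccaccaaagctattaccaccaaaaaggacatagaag
Ighg3 hinge, chr12:113360529-113360576: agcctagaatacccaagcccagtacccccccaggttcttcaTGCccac
Ighg1 hinge, chr12:113329844-113329882: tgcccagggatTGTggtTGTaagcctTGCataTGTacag
Ighg2b hinge, chr12:113307261-113307326: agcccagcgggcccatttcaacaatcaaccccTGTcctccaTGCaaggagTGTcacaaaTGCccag
Ighg2c hinge, chr12:113288263-113288325: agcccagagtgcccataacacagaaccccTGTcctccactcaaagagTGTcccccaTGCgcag

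The Ighd hinge exon holds 0 such codons and those of Ighg3, Ighg1, Ighg2b and Ighg2c hold 1, 4, 4 and 3. In pairwise alignment the hinges of the 4 IgG genes were identical at 38.8% to 77.3% of positions, against 78.4% to 88.3% for the preceding exon, which encodes the first constant domain (CH1), and 73.9% to 94.2% for the next, which encodes the second (CH2). The closest pair was Ighg2b and Ighg2c, with 94.2% in CH2. Stretches of 75 bases found also in the transcripts of another gene made up 0.768% of those of Ighg2b, 0.48% of Ighg2c, 0.574% of Ighg3 and 0.931% of Iglc2, and 0% for the other 6 members. The lambda genes Iglc2 and Iglc3 were 94.1% identical over their transcripts, so the split of reads between them is uncertain. Ighg2c is the allele of the C57BL/6 reference and BALB/c mice carry Ighg2a in its place, so reads listed under Ighg2c passed an alignment to the sister allele and its level is uncertain for the same reason.

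The libraries held 24088309 to 28326568 counts, and 3 counts, the level that a count of 0 still allows, corresponded to 0.0989 to 0.148 CPM (counts scaled to library size after TMM normalization, as reads in each 1000000). Myo1c, the gene that encodes NM1 and other isoforms, was at 312, 289 and 306 CPM in the KO pieces and at 437, 407, 406 and 381 in the KO+NM1 pieces (log2 fold change -0.43 ± 0.13 (SE), edgeR adjusted p = 0.0311), and gene counts separate neither its isoforms nor the transgene. One library stood apart. The log2 CPM of KO+NM1 01 correlated at 0.855 to 0.861 across genes with KO+NM1 02 to 04, which correlated at 0.977 to 0.986 with each other, and the KO pieces did so at 0.966 to 0.977. Results that rest on KO+NM1 01 are given with and without it.

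**Figure D1:**
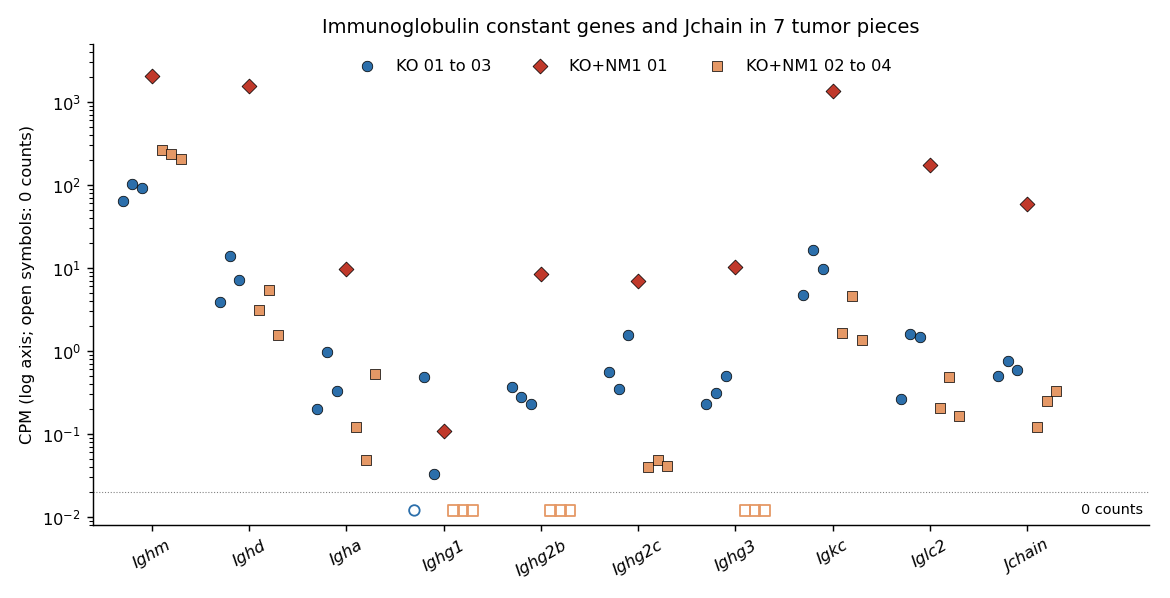
CPM on a log axis of the 10 genes in each of the 7 libraries, 1 symbol per library in the order KO 01 to 03 and KO+NM1 01 to 04, with open symbols under the dotted line for 0 counts. KO+NM1 01 lies above every other library for each gene but Ighg1, and for Ighm alone do KO+NM1 02 to 04 lie above the KO pieces.

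Ighm, the mu heavy chain of IgM, had the highest level per kb of the heavy chain genes in every library. It was at 64.4, 104 and 91.6 CPM in KO 01 to 03, at 2080 in KO+NM1 01, and at 264, 237 and 204 in KO+NM1 02 to 04. All 4 KO+NM1 pieces were above all 3 KO pieces, whose mean was 86.7 ± 20.3 CPM (SD, n = 3) against 235 ± 30.1 (SD, n = 3) in KO+NM1 02 to 04. Ighm was lower in KO over all 7 libraries, with a log2 fold change KO minus KO+NM1 of -3.00 ± 0.88 (SE, edgeR quasi-likelihood adjusted p = 0.0393), and without KO+NM1 01 the fold was smaller and its error too, at -1.56 ± 0.19 (edgeR adjusted p = 0.000382). Leaving out KO 01, KO 02 or KO 03 in turn ended the call over the remaining 6 libraries (edgeR adjusted p = 0.117, 0.0869 and 0.1).

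Ighd, the delta heavy chain that naive mature B cells splice from the Ighm transcript, was at 3.93, 14.1 and 7.12 CPM in the KO pieces, at 1570 in KO+NM1 01, and at 3.13, 5.43 and 1.56 in KO+NM1 02 to 04. Apart from KO+NM1 01 the groups overlapped, since KO 01 lay below KO+NM1 03. The log2 fold change was -5.56 ± 2.17 (edgeR adjusted p = 0.134) with all libraries and 1.19 ± 0.58 (edgeR adjusted p = 0.108) without KO+NM1 01, so that it turned direction and passed the test in neither fit.

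Igkc, the kappa constant region, was at 4.69, 16.3 and 9.76 CPM in the KO pieces, at 1360 in KO+NM1 01, and at 1.67, 4.59 and 1.35 in KO+NM1 02 to 04. The lowest KO piece was just above the highest of KO+NM1 02 to 04. Across all 7 libraries the log2 fold change was -5.05 ± 2.20 (edgeR adjusted p = 0.163). Without KO+NM1 01 Igkc was higher in KO, by 1.89 ± 0.60 on the log2 scale (edgeR adjusted p = 0.0273), the direction opposite to that of Ighm in the same fit.

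For Iglc2, a lambda constant region, the KO pieces gave 0.266, 1.60 and 1.48 CPM, KO+NM1 01 gave 172, and KO+NM1 02 to 04 gave 0.203, 0.493 and 0.164. KO 01 lay within the range of KO+NM1 02 to 04. Its log2 fold change was -5.28 ± 2.25 (edgeR adjusted p = 0.151) with KO+NM1 01 and 1.85 ± 0.77 (edgeR adjusted p = 0.0626) without. The other lambda genes listed, Iglc1 and Iglc3, were also highest in KO+NM1 01, at 29.7 and 102 CPM against at most 0.555 and 1.21 elsewhere. Iglc4 had 14 counts in KO+NM1 01, 1 in KO 02 and 0 in the other 5 libraries.

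Jchain, the joining chain, was at 0.499, 0.764 and 0.593 CPM in the KO pieces, at 58.6 in KO+NM1 01, and at 0.122, 0.247 and 0.328 in KO+NM1 02 to 04. The KO pieces lay above KO+NM1 02 to 04 without overlap. Its log2 fold change was -4.57 ± 2.00 (edgeR adjusted p = 0.146) over all libraries, and without KO+NM1 01 Jchain was higher in KO by 1.27 ± 0.46 (edgeR adjusted p = 0.0362). With every gene of at least 1 count tested in place of the filter, it did not pass (edgeR adjusted p = 0.0888). These are counts of 3 to 22 in the 6 libraries.

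The switched isotypes were rare everywhere. Ighg2c had 17, 10 and 48 counts in the KO pieces, 191 in KO+NM1 01, and 1 in each of KO+NM1 02 to 04. Against the limit of 3 counts per library, the KO mean of Ighg2c was at least 6.35-fold higher than in KO+NM1 02 to 04, and at least 3.48-fold without KO 03. It passed the test without KO+NM1 01 (edgeR adjusted p = 0.00422) and not with it (log2 fold change -1.10 ± 1.75, edgeR adjusted p = 0.635).

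Ighg2b was counted 11, 8 and 7 times in the KO pieces and 233 times in KO+NM1 01, and Ighg3 7, 9 and 15 times and 286 times. Both were at 0 in KO+NM1 02 to 04, so the KO means were at least 2.23-fold and 2.65-fold higher than the limit there. The filter on low counts left both out. With every gene of at least 1 count tested and KO+NM1 01 left out, an alternative chosen after seeing the data, both were higher in KO (edgeR adjusted p = 0.00734 for Ighg2b and 0.00638 for Ighg3), among 14.6% of all genes called higher and 16.4% called lower.

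Ighg1 was the exception among the members. It had 0, 14 and 1 counts in the KO pieces, 3 in KO+NM1 01 and 0 in KO+NM1 02 to 04, so that KO 02 alone held a level above the limit of 3 counts. At this depth nothing more about Ighg1 can be read, and the filter left it out too.

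Igha, the alpha chain of IgA, had 6, 28 and 10 counts in the KO pieces, 267 in KO+NM1 01, and 3, 1 and 13 in KO+NM1 02 to 04. The groups overlapped through KO+NM1 04. Its log2 fold change was -2.38 ± 1.62 (edgeR adjusted p = 0.285), and the filter left it out of the fit without KO+NM1 01. Ighe, the epsilon chain of IgE, was at 0 in all 7 libraries.

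In all, 7 of the 10 members passed the filter on low counts in the fit of all 7 libraries, all 3 left out being IgG genes. Of the 7, 0 were higher in KO and 1, Ighm, was lower, where 17.1% of all genes tested were called higher and 20.3% lower at an adjusted p under 0.05 and a 2-fold change. At an unadjusted p under 0.05 edgeR gave the same counts, and limma's voom with sample quality weights called 4 higher and 1 lower. DESeq2 gave an adjusted p for Ighg1 alone, 0.451. Without KO+NM1 01, 6 members were tested, of which 3 were called higher (Igkc, Ighg2c and Jchain) and 1 lower (Ighm), beside 21.7% and 25.1% of all genes. Members enter such counts by passing a filter that a single group can satisfy, so the counts are a description.

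The KO+NM1 01 library was compared with the highest of the other 6 as a description, with no test, since it is 1 library. Ighd was 111 times as high as in KO 02 (95% interval 101 to 123), Iglc2 108 times, Igkc 82.9 times (75.7 to 91.0) and Jchain 76.7 times. The ratios were 23.2 for Ighg2b, 21.1 for Ighg3, 10.0 for Igha, 7.87 (7.67 to 8.07) for Ighm and 4.40 for Ighg2c. The intervals are exact binomial ones and cover counting error only. Ighm, already high in the other KO+NM1 pieces, thus exceeded them by a smaller factor than the light chains, Ighd or Jchain. At least a 2-fold excess over every other library was found for 9 of the 10 members, and Ighg1, at 0.225 times the level of KO 02, was the exception. The filter on low counts left out Ighg1, Ighg2b and Ighg3. Among the members that passed it the excess was found for 7 of 7, beside 5.86% of all genes tested.

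The 10 members together made up 5270 CPM in KO+NM1 01, 75.2 to 139 CPM in the KO pieces and 208 to 269 CPM in KO+NM1 02 to 04. Leaving out Ighm turned the order of the latter: the other 9 members summed to 10.8, 35.2 and 21.6 CPM in the KO pieces and to 5.28, 10.9 and 3.98 in KO+NM1 02 to 04, with KO 01 just below KO+NM1 03. All immunoglobulin genes took 0.679% of the counts of KO+NM1 01 and 0.00855% to 0.0249% of those of the other 6 libraries.

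**Figure D2:**
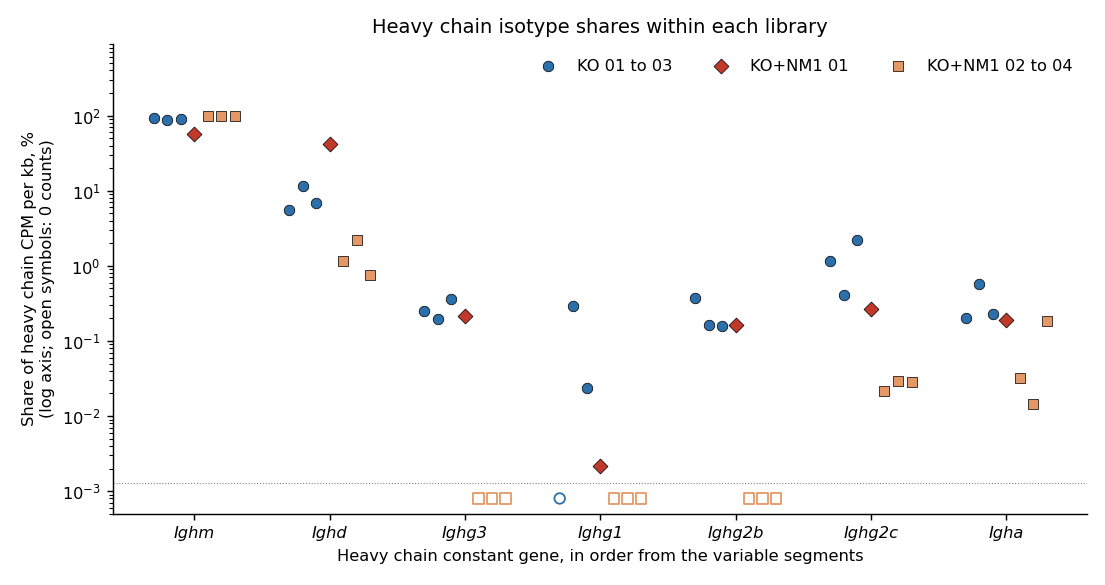
Share of each heavy chain constant gene in the summed heavy chain level (CPM per kb of merged exons, log axis) of each library, with genes in genomic order and open symbols for 0 counts. Ighd holds 42.5% in KO+NM1 01 and at most 11.7% elsewhere, and each IgG or IgA gene stays under 3% in every library.

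Isotype shares were formed on the level per kb of merged exon length, over all heavy chain constant genes. Ighm made up 92.4%, 86.7% and 90.1% in the KO pieces, 56.7% in KO+NM1 01, and 98.8%, 97.7% and 99.0% in KO+NM1 02 to 04. The 3 sets of libraries did not overlap. Most of the rest was Ighd, with 5.60%, 11.7% and 6.95% in the KO pieces, 42.5% in KO+NM1 01 and 1.16%, 2.22% and 0.752% in KO+NM1 02 to 04.

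Per kb, Ighm was 1.33 times as high as Ighd in KO+NM1 01, 16.5, 7.43 and 13.0 times in the KO pieces, and 85.0, 44.0 and 132 times in KO+NM1 02 to 04. Thus the library with the highest antibody transcript level was the one in which both isotypes of naive B cells were nearest to each other. With the longest transcript in place of merged exons as the length, the Ighm and Ighd shares in KO+NM1 01 were 58.0% and 41.2%.

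The switched isotypes (the IgG genes and Igha) took 1.96% (Wilson 95% interval 1.45% to 2.65%), 1.98% (1.57% to 2.50%) and 2.63% (2.12% to 3.26%) of the heavy chain counts in the KO pieces. In KO+NM1 01 they took 0.969% (0.911% to 1.03%), and in KO+NM1 02 to 04 0.0608%, 0.0406% and 0.279%, the last with an interval of 0.166% to 0.468%. The share was thus higher in each KO piece than in each KO+NM1 piece, while in counts KO+NM1 01 held 980 switched reads against 41 to 81 in the KO pieces and 2 to 14 in KO+NM1 02 to 04. The heavy chain counts of KO+NM1 02 to 04 were 97.7% to 99.0% Ighm, so this share also depends on the level of Ighm. Set against light chain counts, the groups overlapped. The KO pieces held 41 switched counts with 163 light chain counts, 69 with 569 and 81 with 373. KO+NM1 02 to 04 held 4 with 55, 2 with 109 and 14 with 42. Among the switched genes Ighg2c had the largest share per kb in KO 01 (1.16%), KO 03 (2.21%) and KO+NM1 01 (0.270%), and Igha in KO 02 (0.572%) and KO+NM1 04 (0.183%), while KO+NM1 02 and 03 held 4 and 2 switched counts in all.

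Kappa prevailed among the light chains in every library. Igkc made up 85.8%, 82.3% and 79.4% of the light chain level per kb in the KO pieces, 81.6% in KO+NM1 01, and 73.3%, 85.5% and 77.9% in KO+NM1 02 to 04, the last from 55, 109 and 42 light chain counts. These ranges overlapped, although the summed level varied widely. KO+NM1 02 to 04 held only 9 to 16 lambda counts each.

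**Figure D3:**
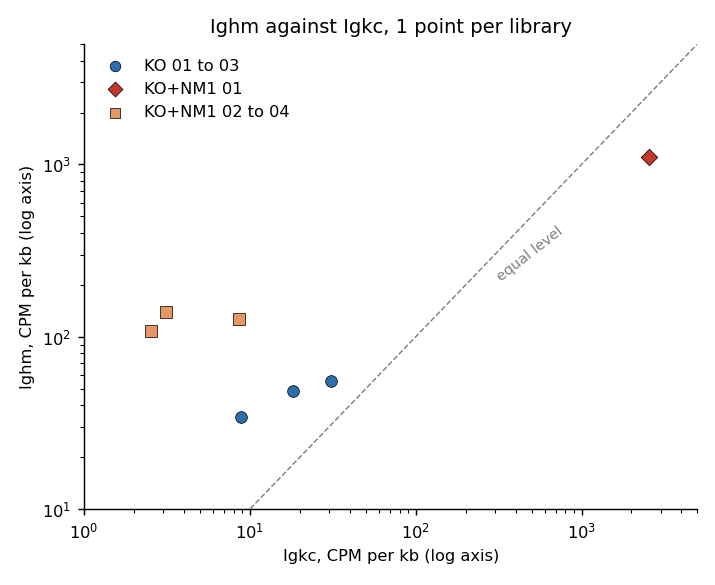
Level of Ighm against that of Igkc, both in CPM per kb of merged exons on log axes, with 1 point per library and a dashed line of equal level. KO+NM1 01 lies below the line (0.432 times as much Ighm as Igkc), the KO pieces above it (1.80 to 3.87 times), and KO+NM1 02 to 04 farthest above (14.6 to 44.7 times).

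The balance of heavy and light chains separated the libraries too. Per kb, the light chain genes together were at 1.61 times the heavy chain genes in KO+NM1 01. In the KO pieces this ratio was 0.278, 0.586 and 0.428, and in KO+NM1 02 to 04 it was 0.0301, 0.0784 and 0.0299. The 3 sets did not overlap, so the Ighm counts of KO+NM1 02 to 04, 4809 to 6497, came with few light chain counts: 158, 51.7 and 150 Ighm counts per Igkc count, against 6.37 to 13.7 in the KO pieces and 1.53 in KO+NM1 01. The ratio of Igkc to Ighd varied less. It was 4.27, 4.13 and 4.89 per kb in the KO pieces, 3.08 in KO+NM1 01 and 1.90, 3.02 and 3.10 in KO+NM1 02 to 04.

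Reads of heavy chain variable (V) segments, which a productive heavy chain transcript must contain, gave a second view of the same imbalance. They numbered 22, 92 and 99 in the KO pieces, 8208 in KO+NM1 01, and 6, 12 and 11 in KO+NM1 02 to 04. Per 1000 Ighm counts this came to 11.4, 30.7 and 35.6 in the KO pieces, 144 in KO+NM1 01, and 0.924, 2.50 and 2.22 in KO+NM1 02 to 04. Kappa V counts per 1000 Igkc counts did not separate the groups: they were 298, 429 and 277, then 439, and then 683, 226 and 60.6, the last from 2 counts. Whether the Ighm reads of KO+NM1 02 to 04 come from germline transcripts was not tested, since gene counts do not show where in Ighm the reads lie.

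Features upstream of Ighm were looked at after these values were seen. The short genes Gm22175 (chr12:113425150-113425227) and Gm25747 (chr12:113424645-113424722), both upstream of Ighm on its strand, had 14, 12 and 5 and 6, 12 and 12 counts in KO+NM1 02 to 04, against 1 to 4 and 2 to 6 in the KO pieces and 85 and 84 in KO+NM1 01. The joining segment Ighj1 went the other way, with 26, 19 and 21 counts in the KO pieces, 26 in KO+NM1 01 and 4, 3 and 4 in KO+NM1 02 to 04, and Ighj4 had 14, 17 and 13, then 63, and then 3, 2 and 3. Ighj2 had 4, 8 and 5, then 7, and then 1, 0 and 2, whereas Ighj3, with 2, 1 and 4, then 21, and then 0, 1 and 5, overlapped between the groups. The strand setting of the counting is not given in the sources used here, and these counts are too small for more than a description.

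**Figure D4:**
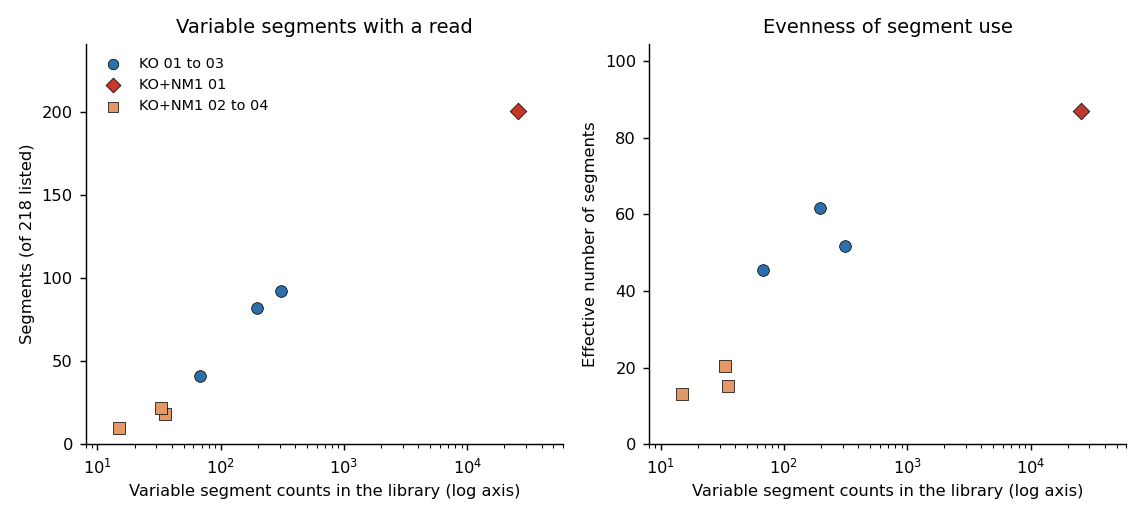
Number of V segments with at least 1 count, of 218 listed (left), and effective number of segments (right), each against the summed V segment counts of the library on a log axis, with 1 point per library. Detected segments rise with depth from 10 to 201, and the effective number is highest in KO+NM1 01, at 87.1.

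V segment use shows how widely the reads spread over the segments, of which many rearrangements can share 1. Of 218 heavy and light V segments listed, 201 had at least 1 count in KO+NM1 01, 41, 92 and 82 in the KO pieces, and 18, 22 and 10 in KO+NM1 02 to 04. These numbers follow the V counts available, which were 25700 in KO+NM1 01, 68 to 310 in the KO pieces and 15 to 35 in KO+NM1 02 to 04. Thinned to 15 counts, the expected number of segments was 13.9 in KO+NM1 01, 13.0 to 13.4 in the KO pieces and 10.0 to 11.5 in KO+NM1 02 to 04.

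No single V segment dominated KO+NM1 01. The leading one was Igkv6-15 with 787 counts, 3.06% of all V counts (Wilson 95% interval 2.86% to 3.28%). The effective number of segments, the inverse of the chance that 2 reads share a segment, was 87.1 in KO+NM1 01. It was 45.6 to 61.7 in the KO pieces and 13.1 to 20.3 in KO+NM1 02 to 04. These values pool the heavy, kappa and lambda segments and are given without an interval. At 68 V counts, that of KO 01 (45.6) exceeds the 41 segments detected. Ighv9-3 led the heavy chain segments of KO+NM1 01 with 431 counts, 5.25% of them, and also led in KO 02, KO+NM1 02 and KO+NM1 04. Among lambda segments Iglv3 led in KO+NM1 01 with 673 counts, 59.8% of the lambda segment counts. V reads were assigned on a C57BL/6 reference and BALB/c segments differ in sequence, so names of segments are uncertain and their number is the safer value.

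**Figure D5:**
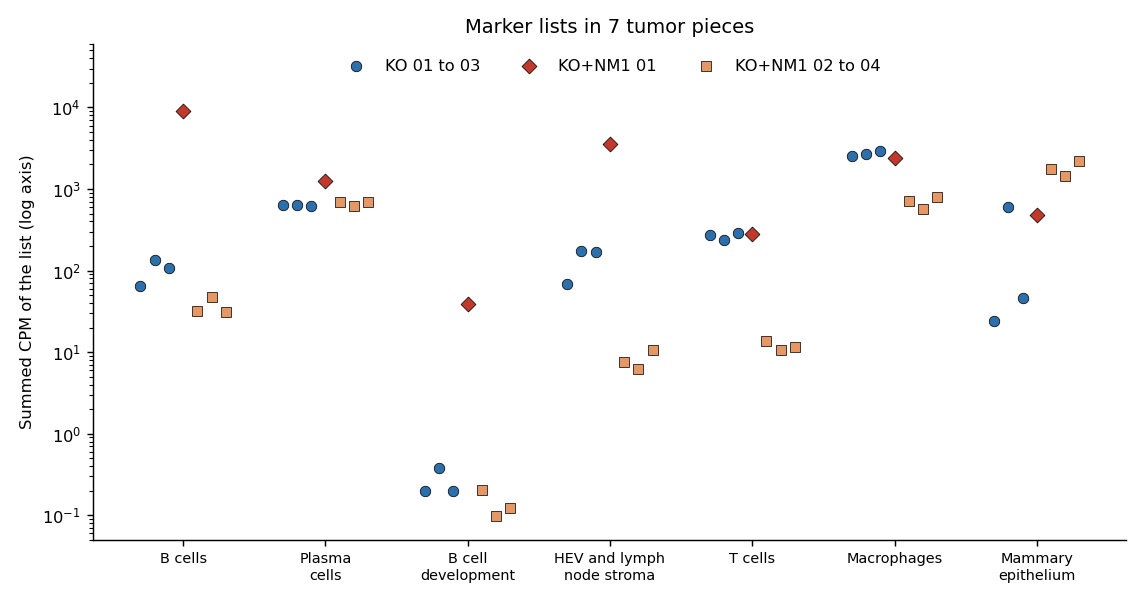
Summed CPM on a log axis of the marker lists for each of the 7 libraries (HEV, high endothelial venules). KO+NM1 01 lies above the other 6 for B cells, plasma cells, B cell development, and venules and lymph node stroma. Its plasma cell sum (1240 CPM) includes 523 CPM of Pou2af1, which is found in B cells generally. In KO+NM1 01 the sums for T cells and macrophages are near those of the KO pieces, but single genes differ from the sums. There the macrophage sum is mostly Lyz2 (1890 CPM), while C1qa (143 CPM) lies far below the KO pieces. Among T cell genes Cd3g (7.65 CPM) lies below the KO pieces and Cd4 (92.2 CPM) above them.

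B cell markers, like 9 of the 10 members, were highest in KO+NM1 01. The 15 genes of the list summed to 9160 CPM in KO+NM1 01, to 63.8, 133 and 106 in the KO pieces and to 31.6, 47.0 and 31.4 in KO+NM1 02 to 04. At least a 2-fold excess in KO+NM1 01 over every other library was found for 15 of 15, beside 5.86% of all genes tested. Cd79a, which signals for the B cell antigen receptor, was at 2.46 to 12.3 CPM in the KO pieces, 1290 in KO+NM1 01 and 1.03 to 4.78 in KO+NM1 02 to 04, and its partner Cd79b at 3.39 to 9.13, 783 and 0.575 to 3.65. Without KO+NM1 01, 5 of the 15 were higher in KO and 0 lower, beside 21.7% and 25.1% of all genes. The list's median log2 fold change was then 1.49 (all genes, 0.00). Over all 7 libraries edgeR called 0 of 15 in either direction, beside 17.1% of all genes higher and 20.3% lower. It gave 0 higher and 1 lower at an unadjusted p under 0.05, limma's voom called 7 higher, and the median was -4.96. These markers were above 0 in every KO+NM1 library except Blk in KO+NM1 02, named here after its values were seen. In KO+NM1 02 to 04 the list was thus below the KO pieces while Ighm was above them. Cd37, a tetraspanin also found on other leukocytes, was at 26.1 to 43.0 CPM, 1400, and 15.9 to 20.6, in the same order of libraries.

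Plasma cell markers did not move as a list. In KO+NM1 01, 4 of 15 were at least 2-fold above the other libraries, beside 5.86% of all genes tested, and 14 of the 15 were among those tested. The list summed to 1240 CPM in KO+NM1 01, 620 to 644 in the KO pieces and 627 to 699 in KO+NM1 02 to 04. Of the 1240 CPM, 523 came from Pou2af1. The 4, named after their values were seen apart from Pou2af1, were Mzb1, Irf4, Derl3 and Pou2af1, a coactivator of immunoglobulin transcription found in B cells generally, which was at 0.466 to 6.11 CPM, 523, and 0.328 to 2.32. Xbp1, the transcription factor of the secretory program, was at 72.8 to 89.8 CPM in the KO pieces, 139 in KO+NM1 01 and 183 to 210 in KO+NM1 02 to 04. It was lower in KO (log2 fold change -1.11, edgeR adjusted p = 0.00278). Of the 14 list genes tested 2 were lower, Xbp1 among them, and 2 higher, beside 20.3% and 17.1% of all genes. The 2 higher, named after their values were seen, were Prdm1 (1.90, edgeR adjusted p = 0.000679) and Fkbp11 (1.73, edgeR adjusted p = 0.00636). Edem1, a factor of protein quality control in the endoplasmic reticulum, was at 106 to 121 CPM in KO and 72.2 to 90.7 in KO+NM1, and Txndc5, a protein disulfide isomerase, was at 158 to 180 and 168 to 208. These factors are expressed in many secretory cells, and the list's median log2 fold change was -0.10.

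Markers of B cell development were near the limit of detection outside KO+NM1 01. The 7 genes summed to 39.3 CPM there and to 0.0987 to 0.382 CPM in the other 6, and 0 were kept by the filter. Vpreb3, part of the surrogate light chain complex, was at 23.2 CPM in KO+NM1 01 and at most 0.243 elsewhere. Rag1, which with Rag2 cuts the loci for rearrangement, was at 4.19 CPM in KO+NM1 01 and at most 0.0347 elsewhere, Dntt, which adds bases at the joints, at 3.82 and at most 0.132, and Vpreb1 at 3.39 and at most 0.0812.

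Genes of high endothelial venules and lymph node stroma were highest in KO+NM1 01 as well, all 7 at least 2-fold above the other libraries. Among all genes tested, which include 5 of the 7, this held for 5.86%. The list summed to 3570 CPM in KO+NM1 01, 67.6 to 176 in the KO pieces and 6.12 to 10.5 in KO+NM1 02 to 04. Glycam1, a mucin of the venules through which lymphocytes enter lymph nodes and also a milk protein, was at 2580 CPM in KO+NM1 01 and at most 1.04 elsewhere. Ccl21a, a chemokine of lymph node stroma and lymphatic vessels, was at 19.7 to 36.8 CPM in the KO pieces, 447 in KO+NM1 01 and 1.04 to 7.51 in KO+NM1 02 to 04. Cxcl13, the chemokine that draws B cells into follicles, was at 46.3 to 146, 378 and 2.09 to 4.55 CPM, and Ccl19, made by the T cell zone of lymph nodes, was at 78.4 CPM in KO+NM1 01 and at most 0.659 elsewhere. Of the 5 list genes tested over all 7 libraries 0 were called by edgeR, beside 17.1% of all genes higher and 20.3% lower. It gave 0 higher and 1 lower at an unadjusted p under 0.05, and limma's voom called 3 higher and 1 lower. Without KO+NM1 01 the 3 that could be tested were all higher in KO, beside 21.7% of all genes. Whether the piece KO+NM1 01 held lymph node tissue beside tumor was not tested, and the antibody values of that library are values of the piece as a whole.

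T cell markers separated the libraries in another way. Their sum was 238 to 286 CPM in the KO pieces, 283 in KO+NM1 01 and 10.6 to 13.6 in KO+NM1 02 to 04. In KO+NM1 01, 0 of 14 were 2-fold above all others, beside 5.86% of all genes tested. Cd3g, of the T cell receptor complex, was at 21.7 to 32.1 CPM in KO, 7.65 in KO+NM1 01 and 0.0410 to 0.244 in KO+NM1 02 to 04. Cd4 was at 41.8 to 70.5, 92.2 and 0.641 to 1.97, Cd8a at 21.2 to 33.3, 26.9 and 0 to 0.444, and the kinase Lck at 33.6 to 40.0, 75.1 and 1.44 to 2.37. Without KO+NM1 01, 13 of 14 were higher in KO, and 2 were with it, beside 21.7% and 17.1% of all genes. Nude mice are known for few mature T cells, and which cells carry these transcripts was not tested.

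Macrophages bind antibody through Fc receptors. Their markers summed to 2560 to 2910 CPM in KO, 2380 in KO+NM1 01 and 569 to 788 in KO+NM1 02 to 04. Of 8, 5 were higher in KO and 0 lower over all 7 libraries, beside 17.1% and 20.3% of all genes. At an unadjusted p under 0.05 edgeR also gave 0 lower, and limma's voom called 1 lower. Without KO+NM1 01 the counts were 5 higher and 1 lower, beside 21.7% and 25.1% of all genes. The 1, Cd163, a scavenger receptor named after its values were seen, was at 7.55 to 14.1 CPM in KO, 6.77 in KO+NM1 01 and 26.0 to 43.4 in KO+NM1 02 to 04. The complement gene C1qa was at 849 to 975 CPM in KO against 94.1 to 143 in KO+NM1, Adgre1 (the F4/80 antigen) at 179 to 226 against 18.2 to 35.1, and Csf1r, the receptor for a macrophage growth factor, at 359 to 375 against 116 to 209. Lyz2, also made by granulocytes, was at 885 to 1020 CPM in KO, 1890 in KO+NM1 01 and 196 to 271 in KO+NM1 02 to 04. It made up most of the macrophage sum of KO+NM1 01, where Cd163, C1qa, Adgre1 and Csf1r lay below every KO piece.

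Mammary epithelium passes IgA into milk. Its markers summed to 24.0, 601 and 46.5 CPM in the KO pieces, 475 in KO+NM1 01 and 1440 to 2220 in KO+NM1 02 to 04. By edgeR 4 of 8 tested were lower in KO and 0 higher, beside 20.3% and 17.1% of all genes. There were 0 higher also at an unadjusted p under 0.05 and by limma's voom. The sum of KO 02 came mostly from the basal keratin genes Krt14 (284 CPM) and Krt5 (249 CPM), named after their values were seen, which did not pass the test (edgeR adjusted p = 0.815 and 0.79). The epithelial adhesion molecule Epcam was at 0.626 to 12.6 CPM in KO and 88.0 to 370 in KO+NM1, the milk protein gene Csn3 at 0.300 to 2.08 and 154 to 624, the keratin gene Krt8 at 1.76 to 17.8 and 78.2 to 359, and Krt18 at 0.233 to 41.5 and 80.0 to 377, the last without passing the test (edgeR adjusted p = 0.0627). The part of these cell markers in the values of the members was not tested.

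Receptors and transporters of antibody were described through 12 genes. Of the 10 tested, 5 were higher in KO and 2 lower over all 7 libraries, with a median log2 fold change of 1.04. Over all genes 17.1% were called higher and 20.3% lower, so the count of 2 lower is near that share. Of the 5, Fcgr4 and Fcgr1, named after their values were seen, had the largest log2 fold changes (6.08 and 4.13, edgeR adjusted p = 0.000185 and 0.000187). Fcer1g, the signaling chain shared by activating Fc receptors, was at 69.5 to 79.9 CPM in KO and 9.57 to 29.1 in KO+NM1 (log2 fold change 2.19, edgeR adjusted p = 0.00308). The inhibitory receptor Fcgr2b was at 53.9 to 73.9 CPM in KO, 83.6 in KO+NM1 01 and 14.2 to 21.9 in KO+NM1 02 to 04, and did not pass over all 7 (0.88, edgeR adjusted p = 0.289).

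The 2 that were lower in KO both carry antibody across cells. Fcgrt, which takes IgG across epithelia and saves it from breakdown, was at 135 to 147 CPM in KO and at 139, 480, 442 and 399 in the KO+NM1 pieces (-1.36, edgeR adjusted p = 0.0283), so that KO+NM1 01 lay among the KO pieces. The Fcgrt call was lost on leaving out any 1 of the other 6 libraries (edgeR adjusted p = 0.0614 to 0.0786) and kept without KO+NM1 01 (2.13e-05). Pigr, which takes polymeric IgA and IgM bound to Jchain across epithelia, had at most 0.0347 CPM in KO against 2.77, 1.62, 1.04 and 1.31 in the KO+NM1 pieces (edgeR adjusted p = 0.0012). Fcmr, the IgM receptor of B cells, followed the members, with 0.699 to 3.54 CPM in KO, 600 in KO+NM1 01 and 0.0410 to 1.97 in KO+NM1 02 to 04.

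For class switching and somatic mutation, 10 of the 19 genes tested were higher in KO and 1 lower, beside 17.1% and 20.3% of all genes, and their median log2 fold change was 1.06. The members of the list that moved also repair DNA in any dividing cell. Msh6, a mismatch repair protein, was at 90.5 to 113 CPM in KO and 19.3 to 40.6 in KO+NM1 (1.94, edgeR adjusted p = 0.0015), and Trp53bp1, which steers broken ends to end joining, was at 71.2 to 76.1 and 22.4 to 33.3 (1.44, edgeR adjusted p = 0.000753). Xrcc6, a Ku subunit of end joining, was at 83.3 to 107 against 28.6 to 71.5 CPM (1.15, edgeR adjusted p = 0.025). Shld1, a shieldin subunit, was the gene lower in KO, at 1.56 to 3.37 against 5.66 to 7.94 CPM (-1.41, edgeR adjusted p = 0.0118).

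Among signals for B cell survival, homing and switching, 4 of 13 genes tested were higher in KO and 2 lower. Over all genes 17.1% were called higher and 20.3% lower. The 4 higher, named after their values were seen, were Ifng, Il21, Il10 and Il4. Their log2 fold changes were 5.35, 5.02, 4.5 and 1.34 (edgeR adjusted p = 0.00127, 0.0027, 0.00159 and 0.0478). Il21 rests on 10 to 22 counts in the KO pieces and at most 1 in the KO+NM1 pieces. Cxcl12, a chemokine that holds plasma cells and their precursors, was at 91.8 to 104 CPM in KO and 334 to 534 in KO+NM1 (-2.05, edgeR adjusted p = 0.000616), and Ccr10, a receptor of IgA plasma cells, at 0.166 to 0.495 and 1.40 to 4.59 (-2.76, edgeR adjusted p = 0.00855). Both were lower in KO. Cd40, through which T cells help B cells to switch, was at 24.1 to 31.7 CPM in KO, 140 in KO+NM1 01 and 1.68 to 2.40 in KO+NM1 02 to 04 (-0.39, edgeR adjusted p = 0.859). Itgb7, an integrin of gut homing, was at 102 to 114, 189 and 6.95 to 8.04 CPM, and Tgfb1, a switch factor for IgA, at 108 to 155, 283 and 55.9 to 75.5. Without KO+NM1 01, Cd40 and Itgb7 were higher in KO by 3.72 and 3.70 on the log2 scale (edgeR adjusted p = 1.34e-05 and 3.48e-06), while Tgfb1 stayed under 2-fold.

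Genes whose log2 CPM followed that of a member most closely over the 7 libraries were found by Pearson's r among 12277 genes with a mean of at least 5 CPM. For Igkc they included Etv3, Trmt1l, Ms4a1 and Cd79a, with r from 0.9945 to 0.9976. Ms4a1 is the B cell antigen CD20. For Ighm they were Tmc6, Epn1, Angel1, Stoml1 and Car2 (0.9909 to 0.9950), of which none is a B cell marker of the list, and for Igha Slc44a2, Zfp143, Tmem154, Stk26 and Golph3l (0.9746 to 0.9807). All 7 points share the libraries, and KO+NM1 01 is far from the rest. Ms4a1 (572 CPM in KO+NM1 01 and at most 7.98 elsewhere) and Cd79a (1290 and at most 12.3) reached the mean of 5 CPM only through that library. Without KO+NM1 01, an alternative chosen after seeing the data, the same 12277 genes were compared. Etv3 alone then stayed among the 5 nearest to Igkc, and the 5 nearest to Ighm and Igha were other genes.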

How the data were processed

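Total RNA of tumor pieces was sequenced on the NextSeq platform after NEBNext Ultra II library preparation. Reads trimmed by the authors with Trimmomatic 0.36 were mapped with HISAT2 2.0.4 on GRCm38 and sorted by SAMtools 0.1.19, and the authors deposited raw read counts per Ensembl gene from HTSeq-count, without normalization. The annotation release, strand and multi-mapping settings are not given in the sources used here. Symbols and exon lengths came from GENCODE M21, which named 46091 of 46603 genes.

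Counts were tested in R 4.3.3 with edgeR 4.0.16 (TMM, filterByExpr with a minimum count of 10, quasi-likelihood test, Benjamini-Hochberg adjustment over all 16887 genes tested, KO minus KO+NM1). Genes were called at an adjusted p under 0.05 and a 2-fold change. Shares, ratios, the comparison of KO+NM1 01 with the other libraries, V segments and likeness are descriptions without a test. The gene test was checked on simulated counts. All 21 pairs of libraries differed beyond sampling noise (chi-square per degree of freedom of at least 35.2).

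Alternatives were other size factors, library sizes, filters and thresholds, DESeq2 1.42.0, limma 3.58.1 voom, a replicate block and each library left out. The members and lists were chosen with earlier results of these data known. Named genes were the members, other constant genes, of each list the 4 with the highest mean CPM and those called against the list where 5 or fewer, the 5 genes most alike to Igkc, Ighm and Igha, and leading V segments. Genes named outside this rule are said to be. Some genes that fall under the rule are not reported here. Receptor, transporter, switching and signal lists and the marker lists of B cells, plasma cells, B cell development, T cells, venules and stroma, macrophages and mammary epithelium are given in the report.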

Additional observations from a re-analysis of the deposited data

Results flagged for a closer look

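In the KO+NM1 group of 4 libraries, 18 values were tested for a sample far from the others, by its gap to the nearest divided by the range of the group, against Dixon's critical value at the 95% level. In 15 of them KO+NM1 01 was the sample far from the rest. Chance marks about 1 in 20 groups, but the 18 are not independent, since they come from the same 4 libraries, and KO+NM1 01 was already known to stand apart, so the values only describe how far. In 6 of the 15 the other 3 libraries are at 0, which gives 1.0 whatever the count.

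On log2(CPM + 0.5) the gap was 0.889 of the range for Ighm, 0.841 for Ighd, 0.847 for Igkc, 0.928 for Iglc2, 0.937 for Jchain and 0.994 for Ighg2c. It was 1.0 for Ighg1, Ighg2b and Ighg3, and for Ighg1 the value rests on 3 counts. Igha was the member that did not pass. On the isotype share per kb the gap was 0.969 for Ighm, where KO+NM1 01 was lowest, and 0.965 for Ighd, 0.971 for Ighg2c and 1.0 for Ighg1, Ighg2b and Ighg3, where it was highest. The Igha and kappa shares did not pass.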

How the results depend on the processing

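Ighm was lower in KO under all 16 alternatives tried, with an adjusted p of 0.000321 to 0.12, and passed the threshold in 11. The count of 1 member lower in KO fell to 0 with library size alone (Ighm adjusted p 0.0512), with DESeq2, which gave Ighm no adjusted p, with the replicate block (Ighm log2 fold change -2.43, adjusted p 0.12), and without each KO library, so that it ranged from 0 to 1 when libraries were left out. The count of members higher in KO rose from 0 to 4 with voom and its sample quality weights and ranged from 0 to 3 when libraries were left out, 3 being the count without KO+NM1 01. By the adjusted p alone 4345 genes in place of 2882 were higher in KO. Counts of called genes over all genes ranged from 2174 to 3603 higher and from 2811 to 4172 lower when libraries were left out.

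The log2 fold change of all or some of the other members turned positive under 3 settings. Of these, leaving out KO+NM1 01 removes the library that set the sign, and for the others the cause was not tested. With voom the log2 fold change was 1.35 for Ighd, 1.37 for Igha, 3.68 for Ighg2c, 2.31 for Igkc, 2.20 for Iglc2 and 1.59 for Jchain. Without KO+NM1 01 it was 1.19 for Ighd, 4.01 for Ighg2c, 1.89 for Igkc, 1.85 for Iglc2 and 1.27 for Jchain, the highest values when libraries were left out in turn, and the lowest were -6.27, -2.06, -5.67, -5.73 and -4.99. With the replicate block, which leaves out KO+NM1 04 from the within-number comparison, it was 0.30 for Igha, 1.16 for Ighg2c, 0.32 for Igkc and 0.00 for Iglc2. Under the block it stayed negative for Ighd (-0.49) and Jchain (-0.38). The block also ended the calls of Fcgrt (adjusted p 0.109) and Shld1 (adjusted p 0.0576). The piece numbers share no more than a number, since deviations of same-numbered pieces correlated at 0.0802, 0.102 and -0.0165.

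With the longest transcript as length, the Ighm and Ighd shares in KO+NM1 01 moved from 56.65% and 42.52% to 57.97% and 41.21%. Taking Iglc2 as the only lambda gene raised the kappa share to 90.04% in KO+NM1 01, 91.93% in KO and 90.78% in KO+NM1 02 to 04. The summed level of the members in KO+NM1 01 was 5665 CPM on plain library size and 5703 CPM with immunoglobulin genes left out of it, against 5268. Of all values recomputed, 451 kept direction and side of the threshold, 16 newly passed it or, for a count, grew by over 1.5 times, 42 no longer passed it or shrank by as much, 7 values without a test moved and 15 reversed. Members with 0 to 3 counts in a library are limited by depth.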
